A study of Mus musculus with 6 samples.

Results

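Tight and gap junction genes were followed in tongue epithelium of mice built to delete Ire1α in keratin 14 expressing cells. The group holds 9 genes, picked by name and function and not by level, though with earlier results of these data known. They are the claudins Cldn1, Cldn4, Cldn7 and Cldn8, the tight junction protein Ocln, the scaffold Tjp1, and the connexins Gja1, Gjb2 and Gjb6. All 9 have a row among the 55421 genes of the deposited table. The series holds 6 libraries from 6 mice, in 2 groups. The KO group is 3 mice labelled K14CreERT2 IRE1 F/F, which carry floxed Ire1α alleles and a tamoxifen-inducible Cre under the keratin 14 promoter. The WT group is 3 littermates labelled IRE1F/F, which carry the floxed alleles without Cre. Every mouse of either group received tamoxifen by injection on 4 days in a row and was harvested on day 5, so drug exposure is shared and Cre is what differs. The labels state neither age nor sex. Because keratin 14 marks basal keratinocytes, endothelial, stromal and immune cells in a peeled mucosa keep their Ire1α alleles. The comparison asks how the lining of the tongue changes under this deletion of Ire1α, a membrane protein that senses protein folding stress in the endoplasmic reticulum.

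Tight junctions seal the space between neighbouring epithelial cells. Claudins form their strands and set which ions and solutes pass, occludin is a second membrane protein of the strand, and the scaffold ZO-1 ties both to actin. Gap junctions are channels built from connexins that let small molecules pass from one cell to the next, and stratified epithelia such as epidermis and oral mucosa use several connexins at once, in different layers.

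The recovered totals ran from 4606309 to 6286153 reads per library, and values below are normalised read counts. The QuantSeq 3' kit takes 1 tag per mRNA from its poly(A) end, so a level does not scale with transcript length, although tag efficiency can still differ between genes. The targeted gene Ern1 had 78.0, 117 and 123 in KO replicates 1 to 3, against 102, 105 and 77.1 in WT replicates 1 to 3, which limma did not call (adjusted p = 0.847). Its deleted exons are not named in the labels, and a 3' tag outside them checks nothing. The 9 suprabasal keratinocyte markers summed to between 626372 and 914121 in KO, against 541993 to 759588 in WT, with Sbsn alone at 0 throughout. Skeletal muscle markers (10 genes) summed to 2139 in KO replicate 1, against 99.97 to 441 in the other 5 libraries.

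No junction member passed the main test between KO and WT, and the 2 that came nearest to it lay in opposite directions. Gja1, which encodes connexin 43, averaged 910 ± 296 in KO and 1847 ± 709 in WT (SD, n = 3 each). Cldn4 averaged 1163 ± 81.1 in KO and 781 ± 157 in WT. Of the 9 members, 8 could be tested, each with a value of at least 10 in all 6 libraries. With limma over 10987 genes, 0 of the 8 passed at an adjusted p of 0.05, where 1.8% of all tested genes did (1.22% higher and 0.583% lower in KO). The unadjusted p was under 0.05 for 2 of the 8, Gja1 and Cldn4, against 13.5% of all tested genes (6.68% higher and 6.84% lower in KO). With edgeR 0 of the 8 passed, where 1.73% of all tested genes did (1.14% higher and 0.592% lower in KO). With DESeq2 on the recovered reads 1 of the 8 passed, Gja1, as lower in KO, where 3.35% of all tested genes did (1.97% higher and 1.38% lower in KO). The groups did not overlap for 1 of the 8, Cldn4, against 19.1% of all tested genes. The median log2 fold change of the 8 was -0.01, the same to 2 decimals as the median of all tested genes, -0.01, with 4 values above 0 and 4 below.

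**Figure D1:**
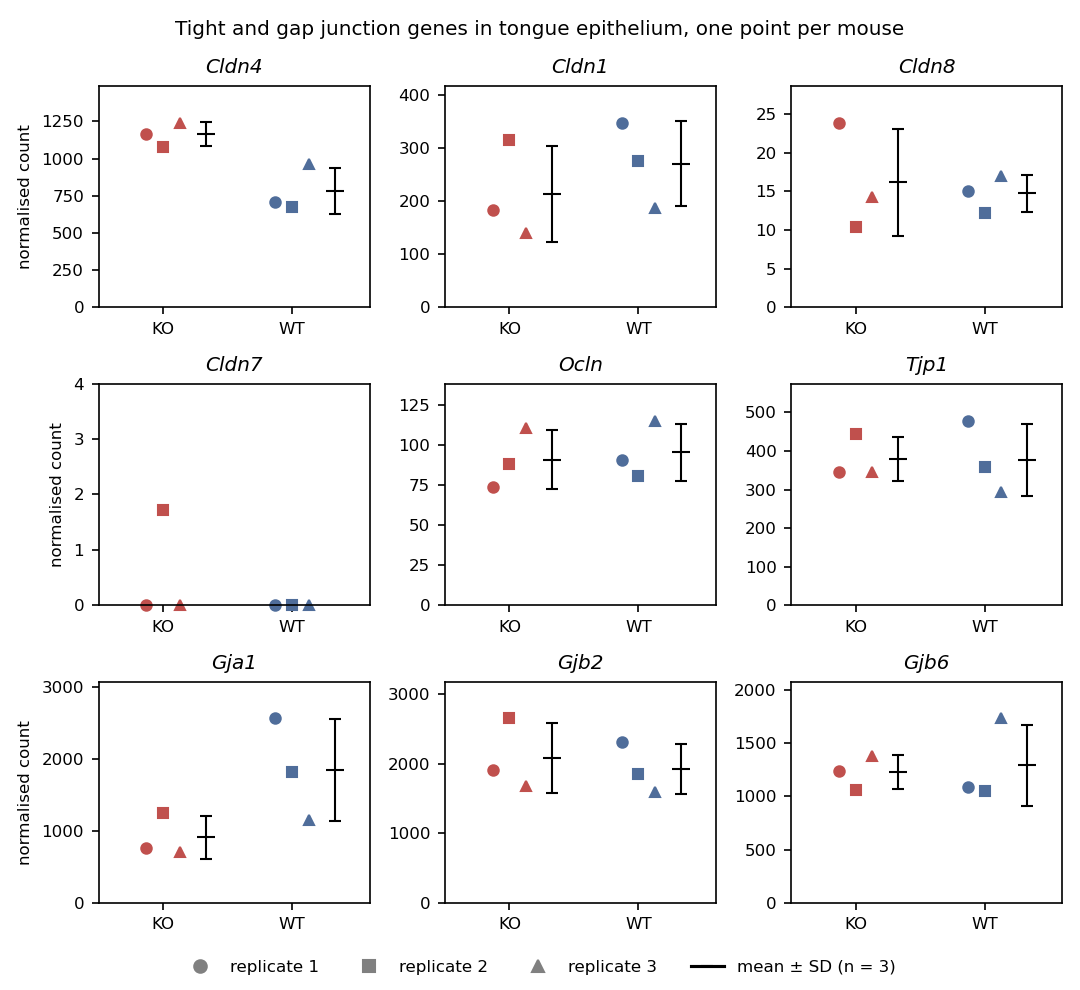
Normalised count (vertical axes, linear, from 0) of the 9 members in KO (red, left) and WT (blue, right). Each symbol is 1 library, its shape gives the replicate number, and black bars give mean ± SD of 3 libraries, left out for Cldn7. The 3 KO values of Cldn4 lie above its 3 WT values, while the highest KO value of Gja1 (1250) lies above the lowest WT value (1148).

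The promoters of Cldn4 and Gja1 are shown because these members had the smallest p of the 8. Each run is the 250 bases before the RefSeq start (GRCm38.p6), written 5′ to 3′ on the gene's strand. Capitals mark TGANTCA, the letters that the AP-1 factors of the Fos and Jun families bind.
Cldn4, chr5:134946935-134947184, minus strand: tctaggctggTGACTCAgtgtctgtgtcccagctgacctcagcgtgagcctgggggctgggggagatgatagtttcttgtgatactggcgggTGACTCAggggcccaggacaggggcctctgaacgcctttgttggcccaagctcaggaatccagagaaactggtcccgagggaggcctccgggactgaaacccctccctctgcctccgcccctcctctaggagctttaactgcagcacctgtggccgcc
Gja1, chr10:56377050-56377299, plus strand: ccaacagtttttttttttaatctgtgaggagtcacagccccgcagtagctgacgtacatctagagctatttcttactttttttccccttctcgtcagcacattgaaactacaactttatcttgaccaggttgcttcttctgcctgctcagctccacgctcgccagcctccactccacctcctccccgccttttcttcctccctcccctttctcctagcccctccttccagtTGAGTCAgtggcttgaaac

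The Cldn4 window holds 2 matches, whose first bases lie 240 and 158 bases before the start, and the Gja1 window holds 1, at 19 bases. The RefSeq promoter table matched 8 of the 9 members, in 10 windows, and these were the only 2 of the 10 windows with TGANTCA on either strand. Among all 32851 windows of that length 6.75% held it and 0.338% held it more than once. The GC box GGGCGG was found in 7 of the 10 member windows, Cldn4 among them and Gja1 not, against 32.7% of all windows. The 7 include 2 windows of Ocln that overlap each other, so the windows are not independent. The Grainyhead letters AACCNGTT were found in 1, that of Gjb6, against 1.79%. The letters TGACGTGG, a core bound by XBP1 and ATF6, were in 0 of the 10 and in 0.563% of all windows. The TATA box TATAAA was in 0 of the 10 and in 12.4% of all windows. These matches describe letters in these windows only.

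Among the claudins, Cldn4 was the most abundant, and the 4 members differed widely in level. Cldn4 (ENSMUSG00000047501, chromosome 5, 134945119 to 134946934, minus strand; these and later gene positions are GENCODE M21 on GRCm38) encodes a barrier claudin of suprabasal epithelium. It had 1169, 1079 and 1241 in KO replicates 1 to 3, against 711, 672 and 961 in WT replicates 1 to 3. All KO libraries were above all WT libraries, and WT replicate 3 came closest. The fold was 1.50 (log2 fold change 0.59 ± 0.18 (SE), 95% interval 0.18 to 1.00), and none of the 3 tools called it (limma adjusted p = 0.166, edgeR adjusted p = 0.187, DESeq2 adjusted p = 0.130). Of the alternatives tried it passed in 1, limma with library weights (0.73, adjusted p = 0.0204), and without single libraries its adjusted p ran from 0.0575 to 0.436.

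Cldn1 (ENSMUSG00000022512, chromosome 16, 26356642 to 26371841, minus strand) encodes the claudin without which mouse epidermis loses its water barrier. It had 184, 315 and 140 in KO replicates 1 to 3, against 348, 276 and 188 in WT replicates 1 to 3. The groups overlapped, and KO replicate 2 was second only to WT replicate 1. The log2 fold change was -0.38 ± 0.31 (SE), with a 95% interval of -1.06 to 0.30 that spans 0 (limma adjusted p = 0.656). Its size rested on single libraries, at -0.12 without KO replicate 3 and -0.70 without KO replicate 2. Cldn8 (ENSMUSG00000050520, chromosome 16, 88560828 to 88563183, minus strand), known as a paracellular cation barrier in the kidney, was scarce. Its values were 23.8, 10.3 and 14.3 in KO replicates 1 to 3, against 15.1, 12.2 and 17.0 in WT replicates 1 to 3. They rest on 92 reads in all 6 libraries, and the interval of the log2 fold change, -0.82 to 0.94, leaves changes of up to 1.92-fold unresolved at this depth (limma adjusted p = 0.971).

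Cldn7 (ENSMUSG00000018569, chromosome 11, 69964779 to 69967885, plus strand), a claudin of many epithelia, was listed at 1.72 in KO replicate 2 and at 0 in the other 5 libraries. That is 2 reads in all. In the 5 libraries at 0, 3 reads, the limit that a count of 0 allows, correspond to 2.62 to 3.92 normalised units, for counting error only. It entered no test. Some transcripts of cells known to be present were listed at 0 throughout, namely Sbsn, a product of suprabasal keratinocytes, and Acta1, the actin of skeletal muscle fibres. A listing near 0 is therefore given as a listing, and GENCODE M21 has no gene overlapping Cldn7 on either strand.

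The other tight junction members, a strand protein and a scaffold, had overlapping values in KO and WT. Ocln (ENSMUSG00000021638, chromosome 13, 100496507 to 100552718, minus strand), which encodes occludin, had 73.7, 87.9 and 111 in KO replicates 1 to 3, against 90.5, 80.3 and 115 in WT replicates 1 to 3. The groups overlapped, with KO replicate 1 the lowest of all and replicate 3 the highest in each group. The log2 fold change was -0.07 ± 0.23 (SE), 95% interval -0.58 to 0.44 (limma adjusted p = 0.932). Tjp1 (ENSMUSG00000030516, chromosome 7, 65296165 to 65527781, minus strand), which encodes ZO-1, had 347, 444 and 346 in KO replicates 1 to 3, against 479, 359 and 293 in WT replicates 1 to 3. The KO values all fell inside the WT range, and the log2 fold change was 0.03 ± 0.21 (SE), 95% interval -0.44 to 0.50 (limma adjusted p = 0.973). GENCODE M21 places Gm44792 and Gm44794 on the same strand and Gm44795 on the other strand within Tjp1, so reads there are uncertain. Changes above 1.41-fold for Tjp1 and 1.35-fold for Ocln lie outside these intervals on the higher side, and changes below 0.736-fold and 0.668-fold on the lower side.

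Of the connexins, Gja1 had the lower mean in KO, and Gjb2 and Gjb6 had means closer to those of WT. Gja1 (ENSMUSG00000050953, chromosome 10, 56377330 to 56402513, plus strand) encodes connexin 43, the most widespread connexin, found in keratinocytes and also in fibroblasts and endothelium. It had 767, 1250 and 712 in KO replicates 1 to 3, against 2566, 1825 and 1148 in WT replicates 1 to 3. KO replicates 1 and 3 were below every WT library, and KO replicate 2 passed WT replicate 3. The log2 fold change was -0.99 ± 0.30 (SE), 95% interval -1.66 to -0.33, which is 0.503-fold. It did not pass with limma (adjusted p = 0.151) or edgeR (adjusted p = 0.152), and it passed with DESeq2 (log2 fold change -1.02, adjusted p = 0.0229). In the authors' deposited table of 341 genes Gja1 is the only member listed, with a log2 fold change of -1.02 ± 0.29 (SE) and an adjusted p of 0.0203. Without WT replicate 3 the limma call was made (-1.30, adjusted p = 0.0416), and without any other single library it was not (adjusted p from 0.0771 to 0.429).

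Gjb2 (ENSMUSG00000046352, chromosome 14, 57098600 to 57104702, minus strand) encodes connexin 26, whose human mutations cause deafness and thickened skin. It was the most abundant member, with 1913, 2647 and 1684 in KO replicates 1 to 3, against 2302, 1849 and 1597 in WT replicates 1 to 3. Both groups covered much the same range, and KO replicate 2 was the highest. The log2 fold change was 0.11 ± 0.22 (SE), 95% interval -0.37 to 0.59 (limma adjusted p = 0.885). Gjb6 (ENSMUSG00000040055, chromosome 14, 57123303 to 57133611, minus strand) encodes connexin 30, which forms mixed channels with connexin 26, and its gene lies 18600 bases from Gjb2. It had 1238, 1065 and 1382 in KO replicates 1 to 3, against 1090, 1054 and 1733 in WT replicates 1 to 3. All KO values lay within the WT range, and the log2 fold change was -0.04 ± 0.22 (SE), 95% interval -0.53 to 0.44 (limma adjusted p = 0.960). KO replicate 2, the highest library for Gjb2, was the lowest of the KO libraries for its neighbour Gjb6.

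**Figure D2:**
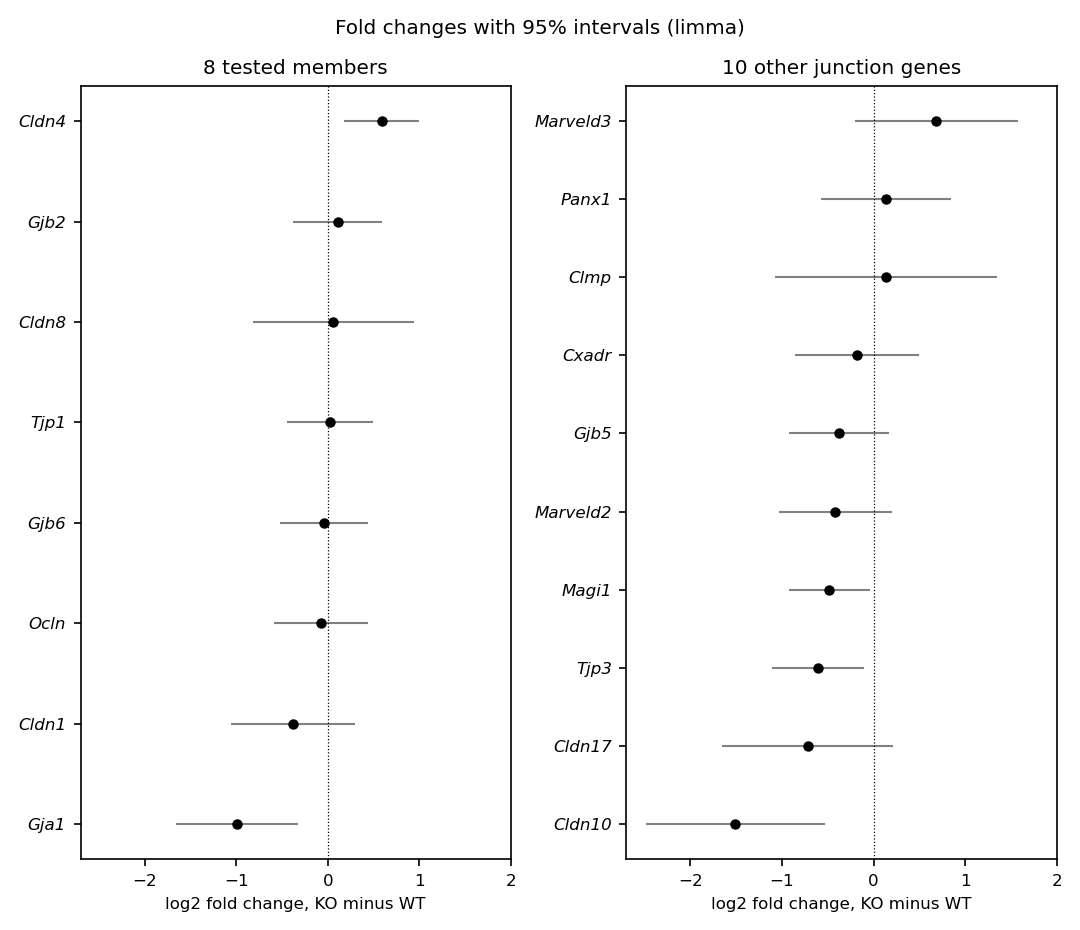
Log2 fold change, KO minus WT (horizontal axes, on the log2(value + 1) scale), with 95% limma intervals for the 8 tested members (left) and 10 other junction genes named in the text (right). Among members the intervals of Gja1 (-1.66 to -0.33) and Cldn4 (0.18 to 1.00) leave out 0, before adjustment over all genes. On the right, Cldn10 passed the filter on low values through its WT libraries alone, so its interval and direction carry no weight.

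The order of the levels differed between genotypes at one place. In KO the mean fell in the order Gjb2, Gjb6, Cldn4, Gja1, Tjp1, Cldn1, Ocln, Cldn8 and Cldn7. In WT Gja1 stood second, between Gjb2 and Gjb6, and the rest kept that order. Neighbours whose ranges overlapped were Gjb6 with Cldn4 and Cldn4 with Gja1 in KO. In WT they were Gjb2 with Gja1, Gja1 with Gjb6, and Tjp1 with Cldn1.

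The make-up of each family was then taken within each library, where scaling cancels. Counts of all 27 claudins in the table summed to 1628, 2009 and 1688 in KO replicates 1 to 3, against 1898, 1495 and 1499 in WT replicates 1 to 3, so the totals overlapped. Cldn4 made up 71.8%, 53.7% and 73.5% of them in KO replicates 1 to 3, against 37.4%, 45.0% and 64.1% in WT replicates 1 to 3. Cldn1 made up 11.8% ± 3.70 in KO and 16.4% ± 3.37 in WT (SD, n = 3 each). Cldn17, a claudin outside the 9, took 13.9% ± 6.998 in KO and 24.3% ± 8.65 in WT. The shares of Cldn4 and Cldn1 each overlapped between groups.

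Among the 20 connexins, Gja1 made up 16.1%, 22.3% and 15.3% in KO replicates 1 to 3, against 38.5%, 34.0% and 21.0% in WT replicates 1 to 3. Gjb2 made up 40.1%, 47.1% and 36.1% in KO replicates 1 to 3, against 34.6%, 34.5% and 29.2% in WT replicates 1 to 3, without overlap. Shares within a family depend on each other, so a lower share of Gja1 raises those of the rest. The Gjb2 count itself overlapped between groups (log2 fold change 0.11, limma adjusted p = 0.885). Gjb6 made up 24.8% ± 5.41 in KO and 22.6% ± 8.08 in WT (SD, n = 3 each). Two-sided exact permutation tests of the 7 member shares, which with 3 against 3 cannot go below 0.1, gave 0.1 for Gjb2 and 0.2 for Gja1, Cldn4 and Cldn1, and an adjusted p of 0.35 for each of the 4. The ratio of Gja1 to Gjb2, looked at after their values were seen, was 0.401, 0.472 and 0.423 in KO replicates 1 to 3, against 1.11, 0.987 and 0.719 in WT replicates 1 to 3. It was the 1 of 3 ratios examined whose groups did not overlap. KO replicate 2 had the highest KO count of both genes, so dividing by Gjb2 brings its value down toward the other KO libraries. The ratio is a description and was not tested. The ratio of Cldn4 to Cldn1 was 6.35, 3.43 and 8.86 in KO replicates 1 to 3, against 2.04, 2.44 and 5.11 in WT replicates 1 to 3, with overlap. The ratio of Gjb2 to Gjb6 was 1.55, 2.48 and 1.22 in KO replicates 1 to 3, against 2.11, 1.75 and 0.922 in WT replicates 1 to 3, also with overlap.

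**Figure D3:**
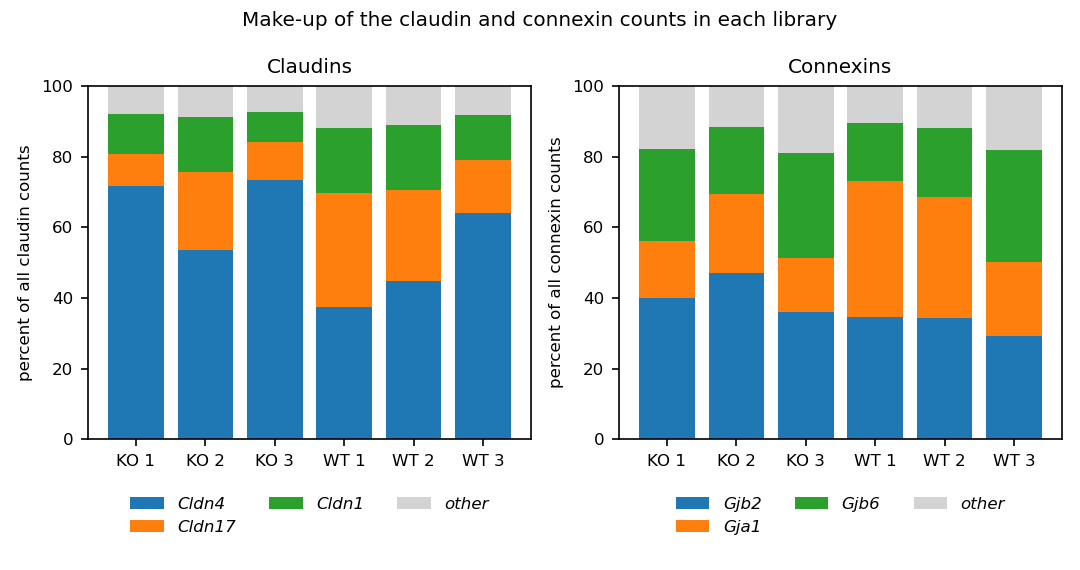
Stacked bars give the percent of all claudin counts (left) and all connexin counts (right) taken by each gene in the 3 KO and then the 3 WT libraries; all genes but the members above 1% on average and Cldn17 are grouped as other. Gja1 takes 15.3% to 22.3% of connexin counts in KO, against 21.0% to 38.5% in WT.

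Spread between libraries of 1 group was largest for Gja1 and Cldn1. Their within-group SD was 0.52 each on the log2 scale, against a median of 0.31 over all tested genes, while Cldn4 had 0.21. Set against its own mean over the 6 libraries, Cldn1 was up by 0.45 in KO replicate 2 and by 0.60 in WT replicate 1 on the log2 scale, and at -0.71 in KO replicate 3. Gja1, Gjb2 and Tjp1 were likewise highest, within KO, in replicate 2, and within WT in replicate 1. Gjb6 had its lowest KO value in replicate 2. Across all tested genes, deviations from the group mean correlated at r = 0.41 between KO replicate 2 and WT replicate 1, a correlation across genes, which are not independent replicates. This was the highest r of any KO and WT pair, and KO replicate 2 with WT replicate 3 stood at r = -0.40. Deviations cancel within a group, so positive and negative r values come together. Whether these libraries share anything is not given in the labels.

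**Figure D4:**
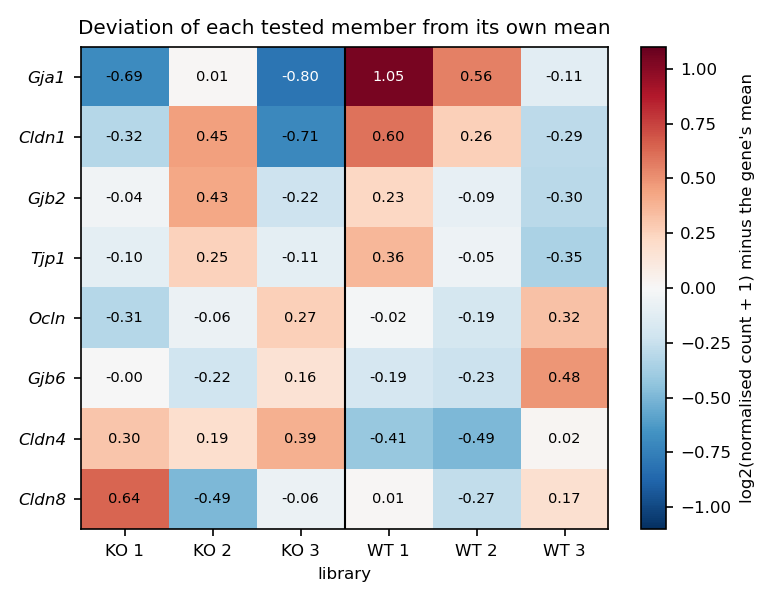
Each cell gives log2(normalised count + 1) minus that gene's mean over the 6 libraries for the 8 tested members (rows) in KO and then WT libraries (columns); red is above and blue below the mean. WT replicate 1 is highest for Gja1 (1.05), Cldn1 (0.60) and Tjp1 (0.36), and KO replicate 2 for Gjb2 (0.43).

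For the 3 members with the widest range over the libraries, the genes with the nearest pattern were sought among 6607 candidates with a mean of at least 50. Nearness was the root mean square difference of centred log2 values over the 6 libraries. For Gja1, which ranged over 1.85 log2 units, these included Fzd6 (0.15), a Frizzled receptor, and Ggh (0.17), gamma-glutamyl hydrolase. For Cldn1 they were Twsg1 (0.06), a BMP-binding protein, Emg1 (0.07), a ribosome biogenesis factor, and Rps2 (0.09), a ribosomal protein. For Cldn8 they were Gpam (0.09), Exosc4 (0.11) and Rhbg (0.11).

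Beyond the 9 members, lists of 77 other tight and gap junction genes held 35 that could be tested, of which 0 passed with limma, 0 with edgeR and 0 with DESeq2, and 3 (Cldn10, Tjp3 and Magi1) had an unadjusted p under 0.05, where 13.5% of all tested genes did. Of these, Cldn10 passed the filter on low values through its WT libraries alone, so its p and its direction carry no weight. Their groups did not overlap for 7 of the 35, Cldn10 included, beside 19.1% of all tested genes, and their median log2 fold change was 0.05, with 20 values above 0 and 15 below. Cldn10, a pore-forming claudin, had 4.33, 8.62 and 6.67 in KO replicates 1 to 3, against 25.4, 13.1 and 23.5 in WT replicates 1 to 3. Its log2 fold change was -1.51 ± 0.44 (SE) (limma adjusted p = 0.136). Cldn17, known as an anion-selective claudin, averaged 256 ± 160 in KO and 407 ± 194 in WT (limma adjusted p = 0.513).

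Of 21 tested scaffold and polarity genes, Tjp3, which encodes ZO-3, averaged 38.6 ± 4.54 in KO and 59.3 ± 5.48 in WT without overlap (log2 fold change -0.61 ± 0.23 (SE), limma adjusted p = 0.259). Magi1, a junctional scaffold, averaged 432 ± 101 in KO and 594 ± 40.2 in WT, also without overlap (-0.48 ± 0.20 (SE), limma adjusted p = 0.318). Of 3 tested tricellular and MARVEL genes, Marveld2, which encodes tricellulin, averaged 22.9 ± 3.61 in KO and 30.8 ± 2.26 in WT (limma adjusted p = 0.577). Marveld3 averaged 23.0 ± 6.65 in KO and 14.3 ± 5.79 in WT (limma adjusted p = 0.514). Among 3 tested immunoglobulin-family junction genes, Cxadr stood at -0.18 and Clmp at 0.13 on the log2 fold change scale (limma adjusted p = 0.855 for Cxadr and 0.948 for Clmp).

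Of 3 other tested connexins, Gjb5 averaged 66.7 ± 8.91 in KO and 88.5 ± 23.3 in WT (limma adjusted p = 0.575). The pannexin Panx1 averaged 48.3 ± 13.7 in KO and 44.8 ± 17.4 in WT (limma adjusted p = 0.903). Among 10 tested regulators of the epithelial barrier 0 passed with limma, edgeR or DESeq2, and 0 had an unadjusted p under 0.05. St14, the membrane protease matriptase, averaged 392 ± 57.1 in KO and 319 ± 53.8 in WT. Grhl2, a Grainyhead factor known to drive Cldn4, averaged 216 ± 27.3 in KO and 242 ± 23.6 in WT (limma adjusted p = 0.563 for St14 and 0.770 for Grhl2).

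Summed markers of several other cell types had ranges that did not overlap between KO and WT. The 8 fibroblast markers, none at 0 in every library, summed to between 252 and 1153 in KO, against 1437 to 1969 in WT. With limma 1 of the 4 tested passed, Dcn (decorin), which was lower in KO and made up 46.0% to 94.2% of the sum. Without Dcn the KO and WT sums overlapped. The log2 fold changes of the 4 lay on both sides of 0, with a median of 0.27. The collagen genes Col1a1 and Col1a2, which did not pass, were at 1.01 and 1.15, with their highest values, 190 and 235, in KO replicate 1. The 8 endothelial markers summed to between 57.2 and 75.8 in KO, against 27.4 to 43.4 in WT, with 1 tested and 0 passing. The 6 smooth muscle and pericyte markers summed to between 45.7 and 180 in KO, against 15.7 to 40.1 in WT, with 1 tested and 0 passing with limma. The sum of 180 was that of KO replicate 1. Acta2 gave 47.4 of the 59.5 in KO replicate 2 and 19.2 of the 40.1 in WT replicate 2. Without Acta2 the KO and WT sums overlapped. DESeq2 called the 1 tested, Acta2, as higher (DESeq2 adjusted p = 0.00964). Acta2 reached 10 in every KO library and, among WT libraries, in replicate 2 alone (19.2). It passed the filter on low values through its KO libraries, so its p and its direction carry no weight. The sums of the leukocyte, salivary gland, taste bud, nerve and erythrocyte lists overlapped. The 8 basal keratinocyte markers summed to between 37603 and 65249 in KO, against 26528 to 28841 in WT, and 1 of 8 passed, Itgb4, which was higher. Of the other 7, 5 had values above 0 and 2 below. The basal keratin gene Krt15 was at -1.25 (limma adjusted p = 0.123, DESeq2 adjusted p = 0.0199) and Trp63, which encodes the basal cell factor p63, at -0.58 (limma adjusted p = 0.170). Their part in the values of Gja1 and Cldn4 was not tested, and in whole epithelium fewer cells of a type and less RNA per cell cannot be told apart. Without KO replicate 1, the library with the most skeletal muscle transcripts, the log2 fold change was -0.89 for Gja1 and 0.58 for Cldn4 (limma adjusted p = 0.429 for Gja1 and 0.391 for Cldn4).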

How the data were processed

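Tongue epithelium of 6 mice, which are the replicates, was profiled with the QuantSeq 3' kit. The authors deposited a normalised read count per gene and library (a signal, per the file headers). Their second deposited table holds mean signal, log2 fold change, a score (Wald statistic by its header), p-values and q-values for 341 genes, with 3 adjusted p-values given as NA. The submitters' processing notes list FastQC, STAR, featureCounts and DESeq2 without versions. For build, annotation and strand setting, the choice made is not given in the sources used here. Value columns were matched by library name, leaving 0 unmatched.

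In each library 100% of values were whole multiples of 1 step (tolerance 0.01 read), 0.862 to 1.31 in size, so whole reads were recovered. The 10987 genes reaching 10 in 3 or more libraries were tested on log2(value + 1) with limma 3.58.1, with trend, in R 4.3.3, two-sided, with Benjamini-Hochberg adjustment at 0.05 over all genes; such folds understate changes of low genes. edgeR 4.0.16 and DESeq2 1.42.0 were run on the recovered reads, and fits were tested on simulated data. The 3192 rows without a symbol, 0.0768% to 0.119% of counts, were kept. Members and lists were chosen with earlier results of these data known. Genes outside the 9 were named by rule, as the 2 tested genes of lowest p per list and the nearest patterns, some of which are not reported here; Dcn, Col1a1, Col1a2, Itgb4, Krt15, Trp63, Sbsn, Acta1 and the genes within Tjp1 were named after their values were seen. Replicate numbers were not taken as pairs: same-numbered deviations correlated at r = -0.25, 0.03 and 0.28.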

Additional observations from a re-analysis of the deposited data

How the results depend on the processing

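Counts of calls moved with the tool, with library weights, with a covariate and with the libraries left out, and the cause was not tested. Genes called higher in KO numbered 134 with limma, and 216 with DESeq2, 317 with library weights, 61 with the style of the library name as a covariate, and 40 to 129 without single libraries. Genes called lower numbered 64 with limma, and 152, 273, 21 and 16 to 52 under the same settings. Members called higher numbered 0 with limma and 1 with library weights (Cldn4). Members called lower numbered 0 with limma, and 1 (Gja1) with DESeq2 and with library weights, and 0 to 1 without single libraries, the 1 being without WT replicate 3. Gja1 (-1.30 to -0.72) and Cldn4 (0.49 to 0.75) kept their direction under all 19 alternatives run for each. The other junction genes had 0 calls under every alternative. The Cldn1 share difference was -4.68 percentage points over all claudins and -10.5 over the members alone.

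Cldn1 was below 0 under all 19 alternatives, at -0.77 with library weights and from -0.70 (without KO replicate 2) to -0.12 (without KO replicate 3) without single libraries. Members with small differences changed sign. Without single libraries Cldn8 ran from -0.25 (without KO replicate 1) to 0.32, and it was at -0.06 without WT replicate 2. Ocln ran from -0.22 to 0.07 (0.0693, without WT replicate 3), was at 0.07 without KO replicate 1, and at 0.17 with library weights. Tjp1 ran from -0.14 (without WT replicate 3) to 0.22, was at -0.09 without KO replicate 2, at -0.10 with library weights and at -0.0088 with equal totals. Gjb2 ran from -0.0778 (without KO replicate 2) to 0.25, was at -0.01 without WT replicate 3, and at -0.0903 with library weights. Gjb6 ran from -0.17 to 0.19 (without WT replicate 3), was at 0.06 without KO replicate 2, at 0.18 with library weights and at 0.0028 with quantile normalisation.

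With the replicate number as a block, 117 genes were called higher and 61 lower, with 0 members called. The block left Cldn1 at -0.38, Cldn4 at 0.59, Cldn8 at 0.06, Ocln at -0.07, Tjp1 at 0.03, Gja1 at -0.99, Gjb2 at 0.11 and Gjb6 at -0.04. Cldn8, at 92 reads, and Cldn7, at 2, are limited by depth.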
